A study of Mus musculus with 10 samples.

Results

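The genes described here are 32 genes of sterol and fatty acid synthesis, chosen by symbol from a fixed list and all found among the 23969 gene symbols of the expression table. They comprise 16 enzymes of the sterol branch (Acat2, Hmgcs1, Mvk, Pmvk, Mvd, Idi1, Fdps, Fdft1, Sqle, Lss, Cyp51, Tm7sf2, Nsdhl, Hsd17b7, Ebp and Dhcr7), 10 enzymes of the fatty acid branch (Acly, Me1, Acaca, Fasn, Elovl5, Elovl6, Scd1, Scd2, Fads1 and Fads2), the sterol carrier Stard4 and 5 regulators (Srebf1, Srebf2, Scap, Insig1 and Insig2). The rule names symbols and no measured values, but the list was drawn up with results of these data known. Of the 32, 31 passed the filter on low values (at least 1 FPKM in at least 2 libraries), as did 11454 genes in all, and Scd1 did not.

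Cholesterol is built from acetyl-CoA through mevalonate, the isoprenoid diphosphates, squalene and lanosterol, while fatty acids are built from the same acetyl-CoA by carboxylation, repeated condensation, elongation and desaturation. The transcription factors SREBP-2, encoded by Srebf2, and SREBP-1, encoded by Srebf1, are known to drive the sterol and the fatty acid branch, with overlap between them. Both are made as membrane precursors that SCAP escorts out of the endoplasmic reticulum when sterols are low, and INSIG proteins hold them back when sterols are plentiful, so the mRNA of a regulator need not follow its activity. In the small intestine, dividing crypt cells need membrane lipid, and enterocytes of the villus take up dietary sterol and fat and pack them into lipoproteins.

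The samples were bulk RNA-seq libraries of proximal jejunum cells, sorted for GFP, of Lgr5-eGFP-IRES-CreER mice, in which the reporter sits in the Lgr5 locus, a marker of intestinal stem cells. All mice had received an adenovirus into a vein. In 3 libraries the virus encoded Rspo1, an R-spondin ligand that raises Wnt signalling (gain of R-spondin function), in 3 it encoded LGR5-ECD, the soluble outer part of an R-spondin receptor (loss of function), and in 2 it encoded Fc, the control. The series calls these biological replicates, and no age or sex of the mice is stated. The names of the control columns gave neither sort nor sample and were read as the GFP-positive Fc samples, and 2 Fc samples of GFP-negative cells were not used here. Because the sort selects on a reporter driven by the Lgr5 locus, and Rspo1 and LGR5-ECD act on the pathway that controls this locus, the gate need not hold the same cells in each group.

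The libraries differed in ways that touch the results below. Summed FPKM lay between 189682 in Fc 2 and 276265 in Rspo1 replicate 3, and 11485 genes were above 0 in LGR5-ECD replicate 3, compared with 13417 to 14197 elsewhere. Crypt base stem cell markers (6 genes, Lgr5 among them) summed to 1782 to 1944 FPKM with Rspo1, 126 to 401 with LGR5-ECD and 436 to 1059 with Fc. Enterocyte markers (8 genes) summed to 141 to 178 FPKM with Rspo1, 653 to 802 with LGR5-ECD and 239 to 465 with Fc. Goblet cell markers (5 genes) summed to 154 to 569 FPKM with Rspo1, 692 to 2285 with LGR5-ECD and 260 to 835 with Fc. Paneth cell markers (5 genes) summed to 1046 to 1844 FPKM with Rspo1, 1251 to 3480 with LGR5-ECD and 14.8 to 369 with Fc. In the contrast of Rspo1 with LGR5-ECD all 6 stem cell markers were higher and all 8 enterocyte markers lower (limma, adjusted p under 0.05). The mesenchymal markers Col1a1, Col1a2 and Pdgfra and the adipocyte markers Adipoq, Plin1 and Fabp4 were at 0 in all 8 libraries. In bulk RNA, fewer cells of a type and less RNA per cell cannot be told apart, and the part of these marker shifts in the results below was not tested.

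In level, the members ranged from the trace to the abundant. Fads2, the delta-6 desaturase, had a mean of 735 FPKM over the 3 group means and ranked 22 among the 11454 genes. Fads1, the delta-5 desaturase beside it in polyunsaturated fatty acid synthesis, followed with 49.3 FPKM, and Scap with 47.4. Scd1, a delta-9 desaturase that is abundant in liver, was between 0.0152 and 0.427 FPKM in every library, while its paralog Scd2 was between 4.95 and 22.5 FPKM. The sterol enzymes were of middling level, with Ebp, a sterol isomerase, the most abundant at 12.7 FPKM. FPKM is scaled to transcript length, so these levels can be set side by side, but the depth behind them is unknown.

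The first question was how R-spondin gain compared with R-spondin loss. Of the 31 members tested, 1 differed between Rspo1 and LGR5-ECD: Elovl6, the elongase that lengthens palmitate to stearate, fell. The other 30 did not pass the test, against 8.45% of all genes that passed it in either direction, 4.92% higher and 3.54% lower. Elovl6 was at 8.13, 10.7 and 10.4 FPKM with Rspo1, 27.1, 29.0 and 22.8 FPKM with LGR5-ECD, and 11.9 and 10.6 FPKM with Fc. Each LGR5-ECD library was above every other library, and the Rspo1 and Fc libraries overlapped. Elovl6 averaged 9.74 ± 1.40 FPKM with Rspo1 and 26.3 ± 3.19 FPKM with LGR5-ECD (SD, n = 3 each), a log2 change of -1.35 (SE 0.19, limma adjusted p = 0.00227). It passed the test under all 17 alternatives, with adjusted p between 0.000282 and 0.0151.

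Against Fc, Elovl6 was the member called in LGR5-ECD cells, where it rose with a log2 change of 1.15 (SE 0.22, limma adjusted p = 0.0476), and 0.716% of all genes were called, 0.445% higher and 0.271% lower. This call stood at the threshold: it held under 5 of 16 alternatives, with adjusted p between 0.0345 and 0.200, and of the 8 fits that left out 1 library it held only in that without LGR5-ECD replicate 3, with adjusted p between 0.0584 and 0.186 in the other 7. With Rspo1 against Fc, where 1.25% of all genes were called, 0.672% higher and 0.576% lower, no member passed limma's adjusted threshold. At an unadjusted p under 0.05, 4 of 31 members were higher and 0 lower. Of all 11454 genes 1372 were higher and 583 lower at this p (17.1% in either direction), so 4 of 31 is near the share of all genes. Elovl6 itself had a log2 change of -0.20 (SE 0.22, limma adjusted p = 0.688) there. Both comparisons with Fc share its 2 libraries, so they are not independent of each other.

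**Figure D1:**
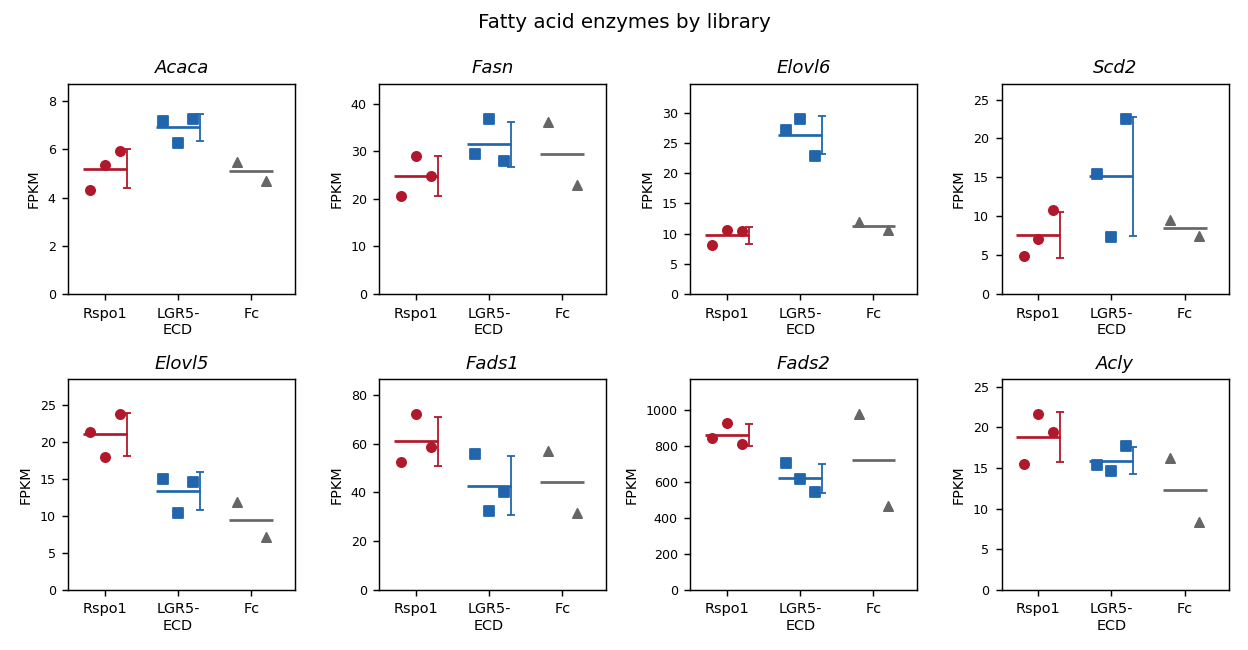
FPKM (vertical axes, each from 0) of 8 fatty acid enzymes by library in the Rspo1, LGR5-ECD and Fc groups. Points are libraries, horizontal lines group means and bars SD of the groups of 3; Elovl6 sits between 22.8 and 29.0 FPKM with LGR5-ECD and between 8.13 and 11.9 FPKM in the other groups, while Elovl5 is highest with Rspo1.

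The fatty acid branch did not move as a unit. Of its 9 tested enzymes, 4 had positive and 5 negative log2 changes with Rspo1 against LGR5-ECD, where 57.7% of all genes were positive. Their median was -0.26 against 0.08 over all genes tested. That median was 0.12 without LGR5-ECD replicate 1, and -0.056 over the 8 enzymes that passed a filter at 5 FPKM. Beside Elovl6, the enzymes with the lower mean under Rspo1 were Scd2, Acaca, Fasn and Me1, and those with the higher mean were Elovl5, Fads1, Fads2 and Acly. None of these other 8 passed the test.

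None of the entry steps of the branch passed the test in any comparison. Acaca, acetyl-CoA carboxylase 1, which makes malonyl-CoA, was at 4.32, 5.37 and 5.94 FPKM with Rspo1, 7.19, 6.26 and 7.27 FPKM with LGR5-ECD, and 5.47 and 4.70 FPKM with Fc. The LGR5-ECD libraries lay above all others, but the log2 change of -0.36 with Rspo1 against LGR5-ECD (SE 0.21) had a limma adjusted p of 0.364. Fasn, the fatty acid synthase that makes palmitate, was at 20.5, 28.9 and 24.9 FPKM with Rspo1, 29.5, 36.8 and 28.0 FPKM with LGR5-ECD, and 36.1 and 22.9 FPKM with Fc. Its groups overlapped in all 3 comparisons. Acly, which makes cytosolic acetyl-CoA from citrate, was between 15.4 and 21.6 FPKM with Rspo1, 14.6 and 17.7 FPKM with LGR5-ECD, and 8.35 and 16.2 FPKM with Fc. Me1, the cytosolic malic enzyme that supplies NADPH, was near the filter, between 0.280 and 3.12 FPKM over the 8 libraries.

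The elongases and desaturases had changes of both signs. Scd2, which puts the delta-9 double bond into stearate, was at 4.95, 7.07 and 10.8 FPKM with Rspo1, 15.5, 7.34 and 22.5 FPKM with LGR5-ECD, and 9.50 and 7.41 FPKM with Fc. The groups overlapped through LGR5-ECD replicate 2, and the log2 change of -0.84 with Rspo1 against LGR5-ECD (SE 0.37) had a limma adjusted p of 0.213. Its paralog Scd1 was at 0.0762, 0.115 and 0.127 FPKM with Rspo1, 0.279, 0.107 and 0.186 FPKM with LGR5-ECD, and 0.427 and 0.0152 FPKM with Fc, values too low to compare.

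Elovl5, the elongase of polyunsaturated fatty acids, was set the other way round from Elovl6 between the treated groups. It was at 21.4, 17.9 and 23.7 FPKM with Rspo1, 15.0, 10.3 and 14.5 FPKM with LGR5-ECD, and 11.8 and 7.14 FPKM with Fc. All Rspo1 libraries were above all others. The log2 change was 0.63 (SE 0.24, limma adjusted p = 0.137) with Rspo1 against LGR5-ECD and 1.10 (SE 0.26, limma adjusted p = 0.0740) against Fc. The change against Fc passed the test without LGR5-ECD replicate 3 (adjusted p = 0.0478) and without Fc 1 (0.0334), and missed it under the other 14 of 16 alternatives.

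Fads2 was at 847, 929 and 811 FPKM with Rspo1, 706, 615 and 542 FPKM with LGR5-ECD, and 976 and 468 FPKM with Fc. The 3 Rspo1 libraries lay above the 3 LGR5-ECD libraries, but the 2 controls spanned both groups, and the log2 change of 0.48 with Rspo1 against LGR5-ECD (SE 0.28) had a limma adjusted p of 0.347. Fads1 was at 52.4, 72.0 and 58.5 FPKM with Rspo1, 55.9, 32.4 and 40.1 FPKM with LGR5-ECD, and 56.8 and 31.5 FPKM with Fc, with overlap in all comparisons.

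A ratio of genes within a library does not depend on that library's scaling. The ratio of Elovl5 to Elovl6 in FPKM, chosen after the values had been seen and therefore given with no test, was 2.63, 1.68 and 2.27 with Rspo1, 0.554, 0.357 and 0.637 with LGR5-ECD, and 0.997 and 0.673 with Fc. Elovl5 thus exceeded Elovl6 in all 3 Rspo1 libraries and in none of the other 5. The ratio of Fads2 to Fasn, chosen in the same way, was 41.3, 32.1 and 32.6 with Rspo1, 23.9, 16.7 and 19.4 with LGR5-ECD, and 27.1 and 20.4 with Fc. The ratio of Fads1 to Scd2, likewise, was 10.6, 10.2 and 5.41 with Rspo1, 3.62, 4.42 and 1.78 with LGR5-ECD, and 5.98 and 4.25 with Fc, where the Rspo1 and Fc libraries overlapped.

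**Figure D2:**
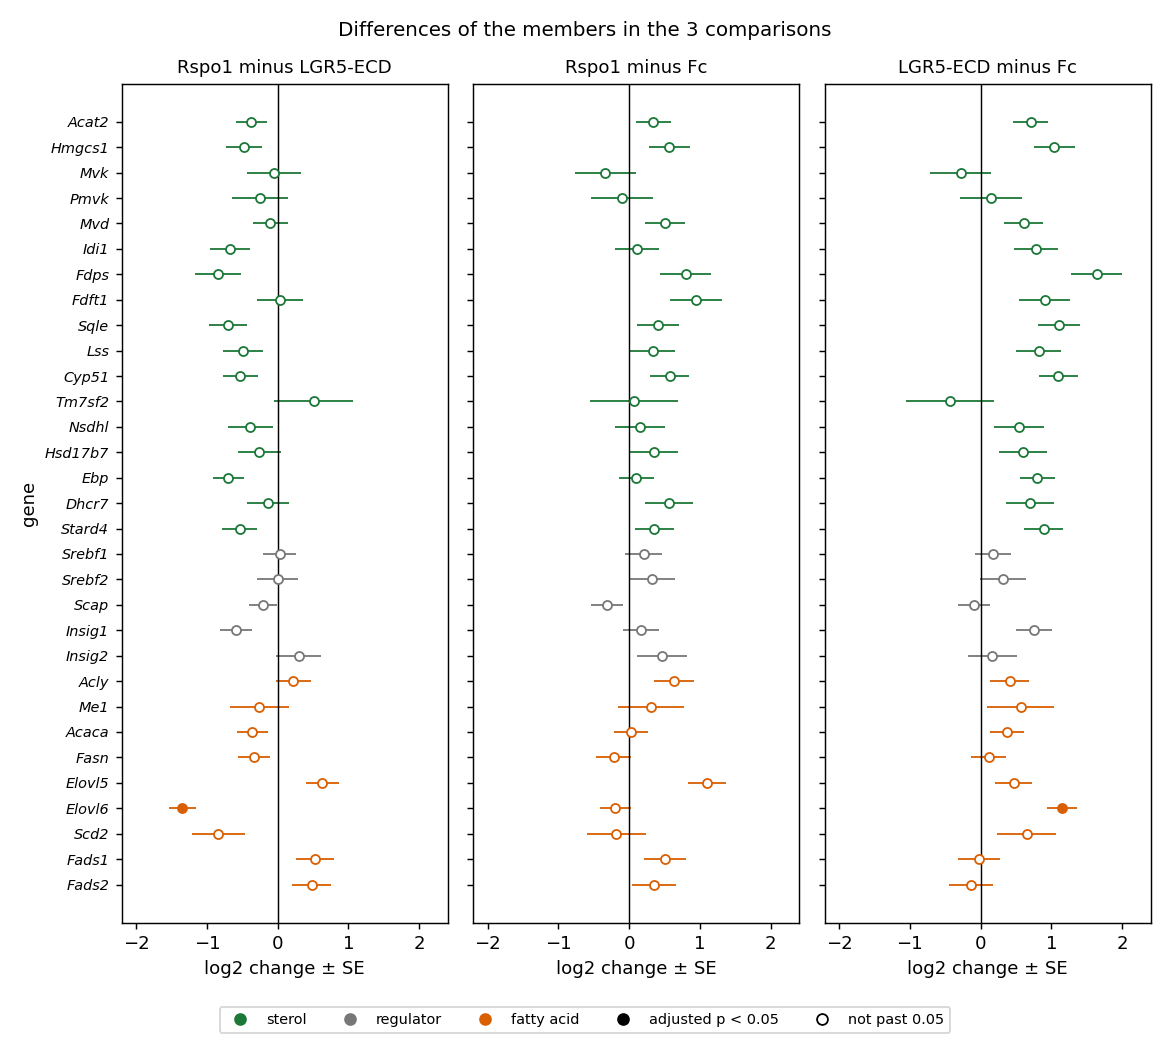
Log2 change (horizontal axes, on the log2(FPKM + 1) scale) of the 31 tested members in the 3 comparisons, with bars of 1 SE. Filled points passed the adjusted threshold, which only Elovl6 did, with Rspo1 minus LGR5-ECD and with LGR5-ECD minus Fc; Stard4 is coloured with the sterol enzymes, whose points lie mostly left of 0 in the first panel and right of 0 in the others.

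In the sterol branch no single enzyme passed the test, and most had changes of the same sign. With Rspo1 against LGR5-ECD, limma called 0 of 16, and 4 were lower and 0 higher at an unadjusted p under 0.05. Of all 11454 genes 1023 were lower and 1595 higher at this p (22.9% in either direction). Here 14 of 16 log2 changes were negative, with a median of -0.38 against 0.08 over all genes. Of all genes 6607 had positive and 4847 negative changes (57.7% positive). With LGR5-ECD against Fc, limma called 0 of 16, and 9 were higher and 0 lower at an unadjusted p under 0.05. Of all genes 1184 were higher and 752 lower at this p (16.9% in either direction). There 14 of 16 changes were positive, with a median of 0.75 against 0.05 over all genes, of which 54.2% were positive. With Rspo1 against Fc, limma called 0 of 16, and 2 were higher and 0 lower at an unadjusted p under 0.05. Of all genes 1372 were higher and 583 lower at this p (17.1% in either direction), so 2 of 16 is near the share of all genes. In that comparison 14 of 16 changes were positive, with a median of 0.34 against 0.16 over all genes, of which 62.9% were positive. After median-ratio scaling or quantile normalization 11 of 16 were positive.

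The median of 0.16 over all genes with Rspo1 against Fc was 0.01 after median-ratio scaling, and the changes of Idi1, Tm7sf2 and Ebp, which are near 0 in that comparison, then had the other sign. The median of the sterol enzymes over all alternatives was -0.50 to -0.29 with Rspo1 against LGR5-ECD, 0.20 to 0.50 with Rspo1 against Fc, and 0.55 to 1.07 with LGR5-ECD against Fc. The lowest and highest values of the last range came without Fc 2 and without Fc 1.

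Genes whose libraries did not overlap between groups were counted as well. With LGR5-ECD against Fc, 9 of 16 sterol enzymes lay wholly higher and 0 wholly lower, where 18.2% and 12.7% of all genes did so. With Rspo1 against LGR5-ECD, 4 of 16 (Acat2, Idi1, Lss and Ebp) lay wholly lower and 0 wholly higher, against 12.1% and 18.9% of all genes. With Rspo1 against Fc, 5 of 16 lay wholly higher and 0 wholly lower, against 26.2% and 12% of all genes, a share near that of all genes. In unscaled FPKM, the group means ran LGR5-ECD above Rspo1 above Fc for 13 of the 16 enzymes and for 20.0% of all genes. The exceptions were Mvk, Pmvk and Tm7sf2. After median-ratio scaling 11 of 16 changes were positive with Rspo1 against Fc, so the place of Rspo1 above Fc depends in part on scaling. The order was not counted on scaled values. Of the cell type markers, the sums of the Paneth cell markers had this order of group means too. They were 1046 to 1844 FPKM with Rspo1, 1251 to 3480 with LGR5-ECD and 14.8 to 369 with Fc. In each treated group 3 of those 5 markers were called higher against Fc. Between the treated groups the sums overlapped, and only Defa22 was called, lower with Rspo1. Of the 5, 4 had negative log2 changes there and Mmp7 a positive one, at 52.2 FPKM with Rspo1 and 29.8 with LGR5-ECD. The smaller sums of enteroendocrine (3 genes), immune (4 genes) and adipocyte markers (4 genes) also ran LGR5-ECD above Rspo1 above Fc in group means. Of the immune markers only Lyz2 passed the filter, and of the adipocyte markers only Cidec was above 0. Neurod1, of the enteroendocrine markers, ran otherwise, at 0.399 FPKM with Rspo1, 0.563 with LGR5-ECD and 1.06 with Fc. The part of these markers in the sterol order was not tested.

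The early part of the branch runs through mevalonate. Hmgcs1, the cytosolic HMG-CoA synthase, was at 4.73, 5.70 and 9.29 FPKM with Rspo1, 8.03, 10.1 and 9.56 FPKM with LGR5-ECD, and 4.30 and 3.62 FPKM with Fc. These are sums over 2 nearly identical rows of the table, so the level may be counted double, and Hmgcs1 shares 458 exonic bases with the antisense gene Gm48342 in the GENCODE M21 annotation. The controls lay below all 6 treated libraries, and the log2 change with LGR5-ECD against Fc was 1.04 (SE 0.29, limma adjusted p = 0.129). Acat2, the cytosolic thiolase of the step before it, was between 4.17 and 5.37 FPKM with Rspo1, 6.15 and 6.87 FPKM with LGR5-ECD, and 3.04 and 4.25 FPKM with Fc. The kinases Mvk and Pmvk, which phosphorylate mevalonate, were scattered within groups, Mvk between 3.78 and 11.5 FPKM and Pmvk between 1.36 and 5.03 FPKM over the 8 libraries. Mvd, the decarboxylase that yields isopentenyl diphosphate, was between 5.47 and 9.66 FPKM with Rspo1, 6.40 and 9.71 FPKM with LGR5-ECD, and 4.53 and 5.30 FPKM with Fc, so only the controls stood apart.

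The isoprenoid and squalene steps followed. Idi1, which interconverts the isoprenoid diphosphates, was at 2.76, 4.56 and 4.23 FPKM with Rspo1, 6.34, 5.97 and 7.67 FPKM with LGR5-ECD, and 4.81 and 2.37 FPKM with Fc. Fdps, farnesyl diphosphate synthase, was at 4.80, 10.9 and 9.11 FPKM with Rspo1, 9.54, 18.8 and 18.4 FPKM with LGR5-ECD, and 4.14 and 4.04 FPKM with Fc. The Fdps controls lay below every treated library, and its change with LGR5-ECD against Fc was the largest of any member, 1.64 (SE 0.36, limma adjusted p = 0.0731), passing the test in 1 of 16 alternatives, without LGR5-ECD replicate 1 (adjusted p = 0.0323). In the GENCODE M21 annotation Fdps shares 197 exonic bases with Gm43738 on the same strand. The annotation used for the FPKM values is not given, so how reads of that stretch were counted is unknown.

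Fdft1, squalene synthase, was at 12.9, 12.9 and 16.4 FPKM with Rspo1, 8.98, 13.0 and 21.4 FPKM with LGR5-ECD, and 4.68 and 9.69 FPKM with Fc. Its Rspo1 and LGR5-ECD groups overlapped, with a log2 change of 0.04 (SE 0.32, limma adjusted p = 0.966) that turned sign under scaling. Fdft1 shares 774 exonic bases with Ctsb on the opposite strand in the GENCODE M21 annotation. Since neither the strand setting nor the annotation used for the FPKM values is given, how reads of that stretch were counted is unknown. Sqle, the monooxygenase that oxidizes squalene, was at 5.73, 12.1 and 8.70 FPKM with Rspo1, 11.8, 16.6 and 15.2 FPKM with LGR5-ECD, and 6.52 and 5.79 FPKM with Fc. Its LGR5-ECD libraries were above both controls (log2 change 1.11, SE 0.29, limma adjusted p = 0.116) and overlapped with Rspo1 only through Rspo1 replicate 2.

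Among the enzymes that close and trim the sterol ring, Ebp came nearest to a call between the treated groups. It was at 8.93, 10.1 and 12.8 FPKM with Rspo1, 15.0, 20.8 and 17.5 FPKM with LGR5-ECD, and 11.5 and 8.13 FPKM with Fc. The LGR5-ECD libraries lay above all others, and the log2 change with Rspo1 against LGR5-ECD was -0.70 (SE 0.22, limma adjusted p = 0.0841). It passed the test in 3 of 17 alternatives: median-ratio scaling, quantile normalization and library quality weights. Cyp51, the lanosterol demethylase, was between 2.85 and 4.26 FPKM with Rspo1, 4.17 and 6.50 FPKM with LGR5-ECD, and 1.98 and 2.04 FPKM with Fc, and its 2 controls lay below every treated library. Its change with LGR5-ECD against Fc was 1.10 (SE 0.28, limma adjusted p = 0.103). Cyp51 shares 166 exonic bases with Akap9 on the opposite strand in the GENCODE M21 annotation. Idi1 (323 bases, Gm48574) and Lss (150 bases, 4930483K19Rik) also have such overlaps on the opposite strand. So do Scap (221 bases) and Me1 (30 bases), while Scd2 (61 bases) and Tm7sf2 (14 bases) overlap a gene on the same strand.

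The remaining ring enzymes varied more. Lss, which cyclizes oxidosqualene to lanosterol, was between 6.16 and 7.24 FPKM with Rspo1, 8.34 and 11.6 FPKM with LGR5-ECD, and 3.14 and 7.89 FPKM with Fc. Nsdhl, Hsd17b7 and Dhcr7, a dehydrogenase and 2 reductases of the late steps, overlapped between groups in every comparison, with log2 changes of -0.39 (SE 0.32), -0.26 (SE 0.30) and -0.14 (SE 0.30) with Rspo1 against LGR5-ECD. Tm7sf2, a sterol reductase, was at 0.643 FPKM in LGR5-ECD replicate 3, the library with the fewest detected genes, and between 4.10 and 9.11 FPKM in the other 7.

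Stard4, which carries cholesterol between membranes, was at 4.59, 6.45 and 5.98 FPKM with Rspo1, 10.5, 8.45 and 7.15 FPKM with LGR5-ECD, and 5.23 and 3.29 FPKM with Fc. All LGR5-ECD libraries were above all others, with a log2 change of -0.54 (SE 0.25, limma adjusted p = 0.227) for Rspo1 against LGR5-ECD.

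**Figure D3:**
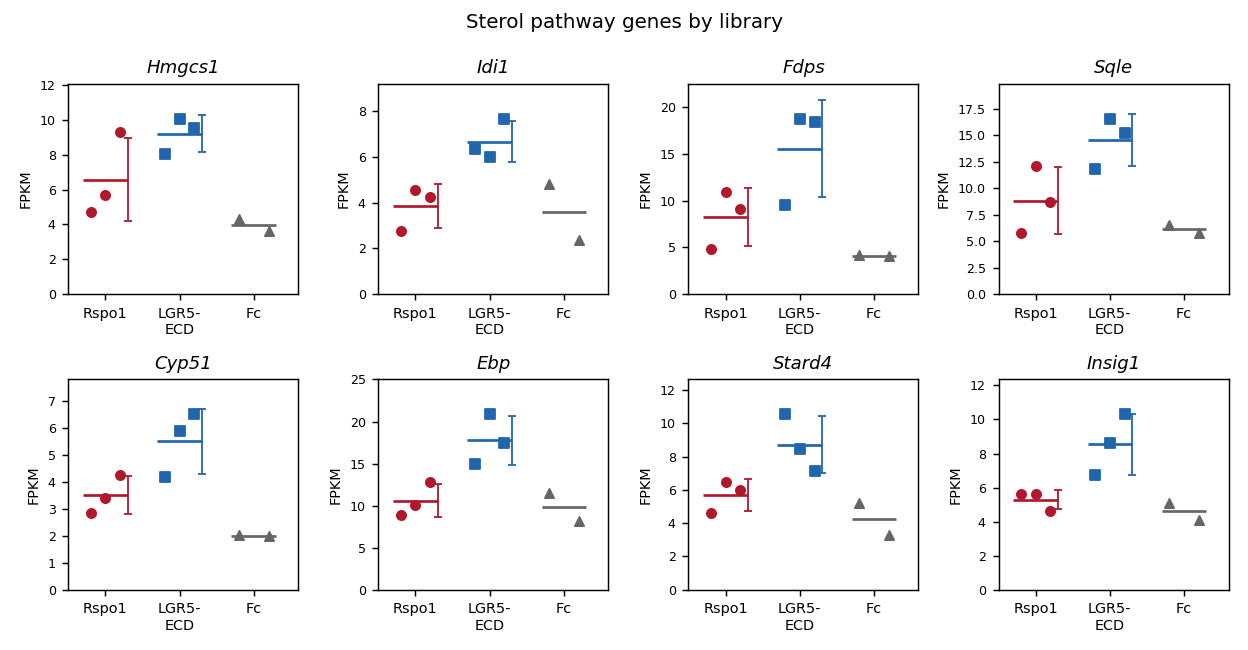
FPKM (vertical axes, each from 0) of 6 sterol enzymes, Stard4 and Insig1 by library in the Rspo1, LGR5-ECD and Fc groups. Points are libraries, horizontal lines group means and bars SD of the groups of 3; the LGR5-ECD mean is the highest of the 3 in every panel, and for Fdps, for example, the controls are at 4.14 and 4.04 FPKM.

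None of the 5 regulators passed limma's adjusted threshold in any comparison, and at an unadjusted p under 0.05 the counts were 1 lower with Rspo1 against LGR5-ECD, 1 higher with LGR5-ECD against Fc and 0 with Rspo1 against Fc. That p was reached by 22.9% of all genes with Rspo1 against LGR5-ECD, 16.9% with LGR5-ECD against Fc and 17.1% with Rspo1 against Fc, so 1 of 5 is near the share of all genes. The gene was Insig1 both times. Srebf2 was at 31.6, 47.7 and 56.8 FPKM with Rspo1, 47.1, 59.1 and 30.5 FPKM with LGR5-ECD, and 42.6 and 28.8 FPKM with Fc. Its values spread as widely within the treated groups as between them (log2 change 0.00, SE 0.29, limma adjusted p = 0.997 with Rspo1 against LGR5-ECD). Srebf1 was at 12.2, 12.5 and 14.3 FPKM with Rspo1, 12.4, 15.8 and 10.4 FPKM with LGR5-ECD, and 14.0 and 8.72 FPKM with Fc, again with overlap in every comparison, and it shares 109 exonic bases with Rai1 on the opposite strand. Scap, the escort, was between 36.8 and 64.4 FPKM over the 8 libraries. Insig2 was between 1.04 and 3.20 FPKM.

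Insig1, the anchor that is itself a known target of SREBP, resembled the sterol enzymes. It was at 5.62, 5.61 and 4.64 FPKM with Rspo1, 6.72, 8.60 and 10.3 FPKM with LGR5-ECD, and 5.10 and 4.10 FPKM with Fc. Each LGR5-ECD library exceeded every other library, but neither the change of -0.59 with Rspo1 against LGR5-ECD (SE 0.23, limma adjusted p = 0.150) nor that of 0.76 with LGR5-ECD against Fc (SE 0.25, limma adjusted p = 0.183) passed the test.

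**Figure D4:**
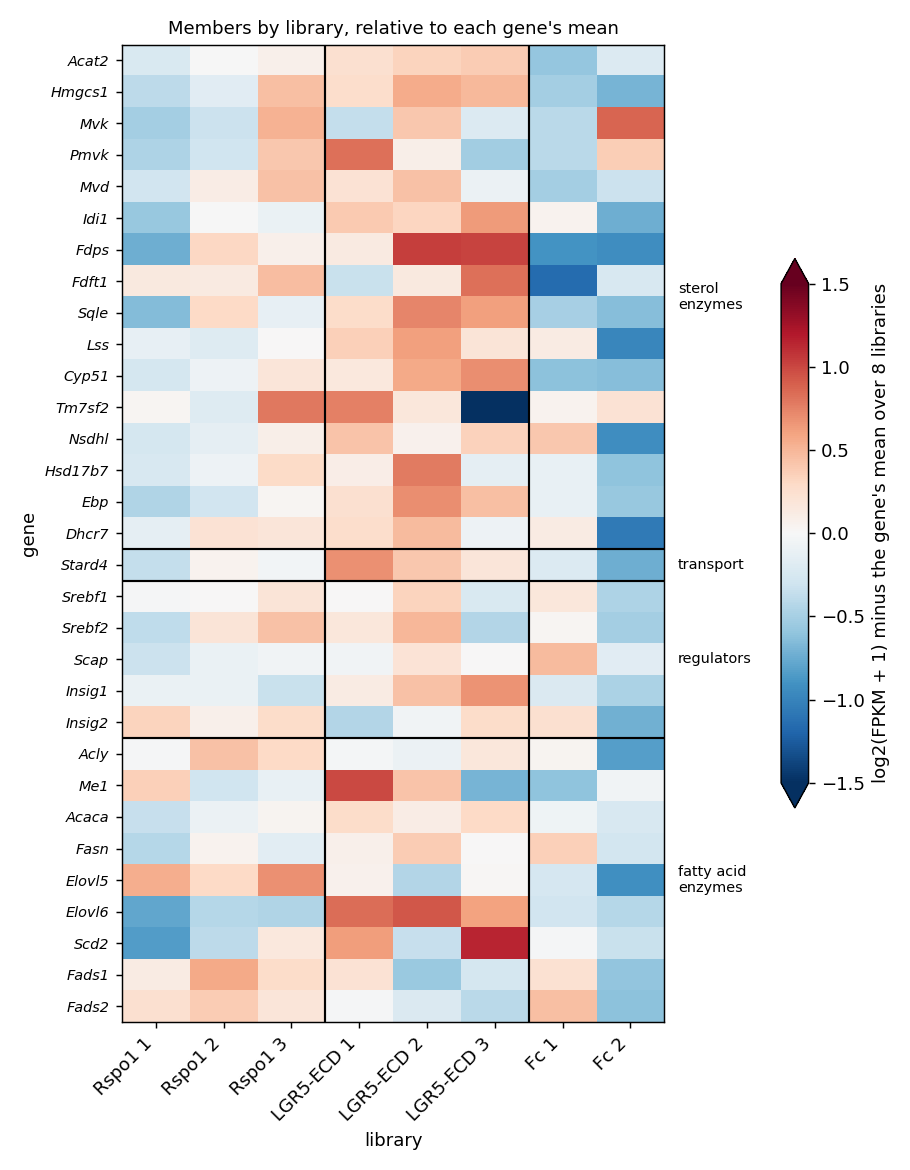
Log2(FPKM + 1) of each of the 31 tested members in each of the 8 libraries, minus the gene's mean (colour scale, red above and blue below). Most sterol enzymes are red in the LGR5-ECD columns and blue in Fc 2, while Elovl5, Fads1 and Fads2 are red in all Rspo1 columns.

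Set side by side as branch means, the sterol enzymes had a mean log2(FPKM + 1) of 2.55, 2.82 and 3.10 with Rspo1, 3.11, 3.33 and 3.04 with LGR5-ECD, and 2.55 and 2.42 with Fc. Rspo1 replicate 3 reached the LGR5-ECD values. Taken against the mean of all genes in the same library, the sterol mean was -0.51, -0.30 and -0.08 with Rspo1, 0.06, 0.22 and 0.13 with LGR5-ECD, and -0.53 and -0.46 with Fc, so that the LGR5-ECD libraries then stood above all others. The fatty acid mean against all genes was 1.17, 1.29 and 1.27 with Rspo1, 1.63, 1.26 and 1.54 with LGR5-ECD, and 1.26 and 0.99 with Fc, where LGR5-ECD replicate 2 lay among the Rspo1 libraries. The sterol mean minus the fatty acid mean was -1.68, -1.59 and -1.35 with Rspo1, -1.57, -1.04 and -1.41 with LGR5-ECD, and -1.78 and -1.45 with Fc, and the groups overlapped. No difference between the branches was tested, because their genes were chosen with results of these data known.

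**Figure D5:**
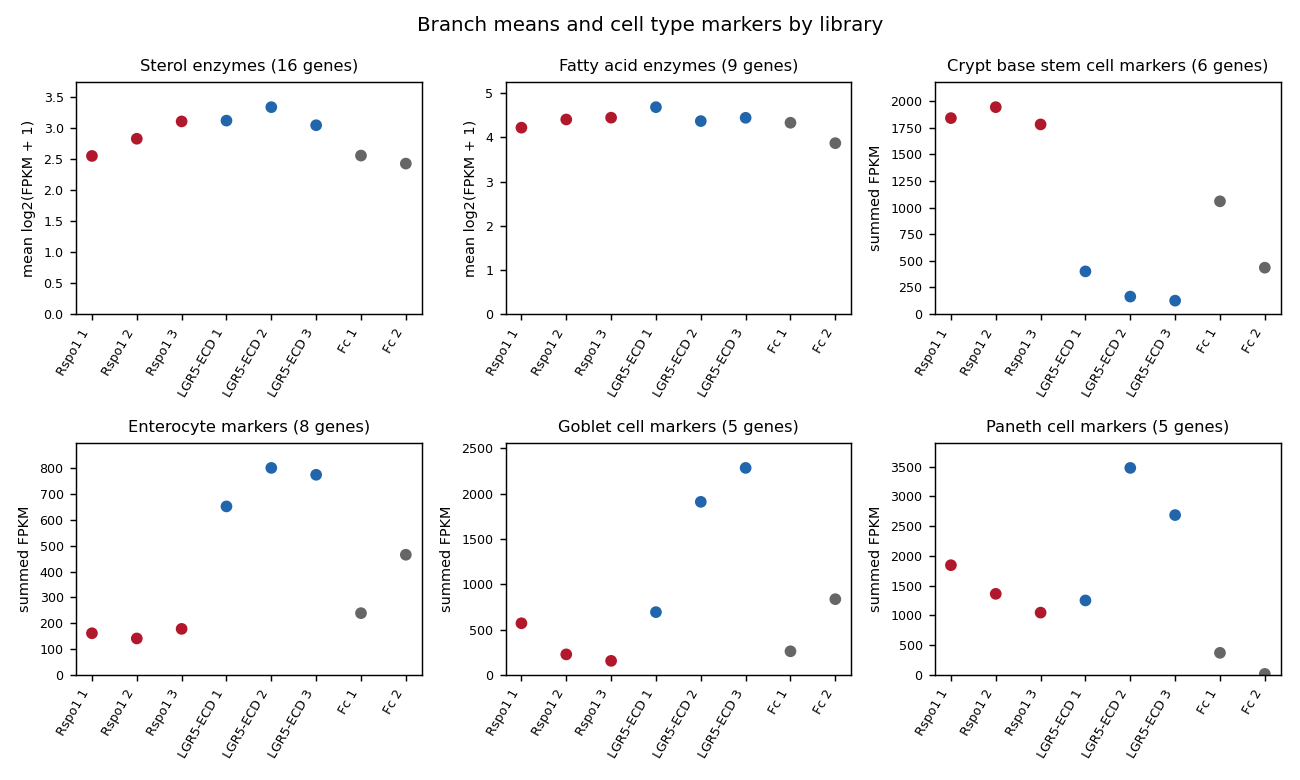
Mean log2(FPKM + 1) of the 16 sterol and 9 tested fatty acid enzymes (first 2 panels) and summed FPKM of 4 sets of cell type markers (other panels) in each library. The sterol means of the LGR5-ECD libraries lie between 3.04 and 3.33, and the same libraries have 653 to 802 FPKM of enterocyte markers, against 141 to 178 FPKM with Rspo1.

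The stretches before the transcription starts were read to describe the members in sequence. RefSeq windows (GRCm38.p6, another build than that of the expression table) were matched for 25 of the 32 members. The 250 bases before each start were searched on both strands for TCACNCCAC, a form of the sterol regulatory element, for its core CACNCCAC, which lies within the longer motif, for CCAAT, the box bound by NF-Y, and for the E-box CACGTG. Shown are the stretches of 4 sterol enzymes and those of the elongases Elovl6 and Elovl5, whose differences between the treated groups had opposite signs. Capitals mark CCAAT, or its reverse complement where it lies on the other strand, and CACNCCAC, and each stretch reads 5′ to 3′ towards the start.
Hmgcs1 (chr13:119690101-119690350, plus strand): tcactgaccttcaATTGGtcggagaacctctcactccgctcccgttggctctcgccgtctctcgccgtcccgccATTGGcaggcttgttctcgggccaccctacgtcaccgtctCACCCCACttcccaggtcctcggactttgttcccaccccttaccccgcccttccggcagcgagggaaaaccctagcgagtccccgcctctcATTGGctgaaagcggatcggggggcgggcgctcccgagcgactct
Idi1 (chr13:8885356-8885605, plus strand): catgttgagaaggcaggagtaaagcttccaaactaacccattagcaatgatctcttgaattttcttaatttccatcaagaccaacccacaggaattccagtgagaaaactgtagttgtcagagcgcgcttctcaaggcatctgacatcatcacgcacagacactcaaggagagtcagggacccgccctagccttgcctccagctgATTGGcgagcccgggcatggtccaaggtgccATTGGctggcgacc
Cyp51 (chr5:4104698-4104947, minus strand): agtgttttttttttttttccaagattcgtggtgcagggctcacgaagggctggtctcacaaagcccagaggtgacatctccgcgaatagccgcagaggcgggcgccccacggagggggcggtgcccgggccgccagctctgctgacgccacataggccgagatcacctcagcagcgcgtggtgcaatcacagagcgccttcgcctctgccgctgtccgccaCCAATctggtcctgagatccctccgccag
Ebp (chrX:8193513-8193762, minus strand): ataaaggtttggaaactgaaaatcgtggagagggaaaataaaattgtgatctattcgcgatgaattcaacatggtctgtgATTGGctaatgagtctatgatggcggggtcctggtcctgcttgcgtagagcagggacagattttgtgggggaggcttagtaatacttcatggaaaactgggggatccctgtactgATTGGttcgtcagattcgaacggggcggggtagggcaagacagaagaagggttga
Elovl6 (chr3:129532136-129532385, plus strand): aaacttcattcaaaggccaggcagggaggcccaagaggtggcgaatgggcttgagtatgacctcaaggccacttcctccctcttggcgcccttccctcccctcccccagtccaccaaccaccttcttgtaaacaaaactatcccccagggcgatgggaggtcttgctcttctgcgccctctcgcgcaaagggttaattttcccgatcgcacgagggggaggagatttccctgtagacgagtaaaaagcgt
Elovl5 (chr9:77917115-77917364, plus strand): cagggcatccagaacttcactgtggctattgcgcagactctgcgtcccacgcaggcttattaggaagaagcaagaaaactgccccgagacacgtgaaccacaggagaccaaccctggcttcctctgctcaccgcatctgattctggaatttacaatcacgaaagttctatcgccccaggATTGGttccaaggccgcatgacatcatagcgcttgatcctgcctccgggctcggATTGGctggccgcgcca

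A CCAAT box was found before 12 of 13 sterol enzymes with a window (92.3%), 3 of 7 fatty acid enzymes (42.9%) and 4 of 5 regulators (80%), and before 40.3% of the 8682 tested genes with a window, where a gene with several starts counted if any of its windows held the box. Mvk, Pmvk and Tm7sf2, which lacked the common order of unscaled group means, had the box, and Acat2, which had that order, did not. With the box before 12 of 13, a relation of box and order cannot be read from these genes and was not tested. The long sterol element was found in 1 of the 13, Hmgcs1, from 137 to 129 bases before the start, and in 1.29% of the tested genes. Its core was in 2 of 13 sterol enzymes (15.4%) and 6.61% of tested genes, and the E-box was in 2 of 13 (15.4%) and 10.2%. The Elovl6 stretch held none of these motifs and that of Elovl5 held 2 CCAAT boxes and an E-box. These are matches of letters in a short window, not measured binding sites.

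Beyond the members, calls were found among genes of sterol uptake and esterification and of lipogenesis support and glyceride synthesis. Of 13 tested genes of sterol uptake, esterification and export, 3 were lower and 1 higher with Rspo1 against LGR5-ECD. Of all genes 3.54% were called lower and 4.92% higher. Npc1l1, the transporter that takes up dietary cholesterol, had a log2 change of -2.48 (SE 0.19, limma adjusted p = 0.000113). Of the enzymes that esterify cholesterol, Soat2 was lower, at 6.51 FPKM with Rspo1 and 15.2 FPKM with LGR5-ECD (log2 change -1.09, SE 0.29), and Soat1 higher, at 45.1 FPKM with Rspo1 and 4.62 FPKM with LGR5-ECD (3.12, SE 0.31). Npc1l1 was also lower with Rspo1 against Fc (-1.77, SE 0.22, limma adjusted p = 0.00541).

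With Rspo1 against LGR5-ECD, 3.54% of all genes were called lower and 4.92% higher. Of 21 tested genes of lipogenesis support and glyceride synthesis, 5 were lower and 2 higher there. The lower ones included the acyltransferases Mogat2 (log2 change -2.34), Dgat2 (-1.46), Agpat2 (-1.18) and Dgat1 (-1.12), which build triglyceride. The higher ones were Plin2 (1.09), which coats lipid droplets, and Pnpla2 (0.82), a triglyceride lipase. With Rspo1 against Fc, Mlxipl, a glucose-responsive regulator of lipogenesis, was lower (-1.09, SE 0.19) and Pnpla2 higher (1.00, SE 0.20). There 0.576% of all genes were called lower and 0.672% higher. With LGR5-ECD against Fc no gene of these 2 lists passed limma's test, while at an unadjusted p under 0.05 the list of 13 had 2 higher and 1 lower and the list of 21 had 4 higher and 1 lower, where 16.9% of all genes reached it.

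Other sterol synthesis enzymes, outside the 16, numbered 5 tested, of which limma called 0 in each comparison. With Rspo1 against LGR5-ECD 4 of these 5 had negative changes, with a median of -0.51, and 2 were lower and 0 higher at an unadjusted p under 0.05. With LGR5-ECD against Fc 4 of 5 were positive, with a median of 0.79, and 3 were higher and 0 lower at an unadjusted p under 0.05. With Rspo1 against Fc 0 were past an unadjusted p of 0.05, and the median was 0.16. That p was reached by 22.9% of all genes with Rspo1 against LGR5-ECD, 16.9% with LGR5-ECD against Fc and 17.1% with Rspo1 against Fc. In the same order, 57.7%, 54.2% and 62.9% of all genes had positive changes. Among 10 tested desaturases, elongases and acyl-CoA synthetases other than the members, limma called 0 in each comparison. With Rspo1 against LGR5-ECD 1 was higher and 2 lower at an unadjusted p under 0.05, near the 22.9% of all genes. The enterocyte markers were lower and the stem cell markers higher with Rspo1 against LGR5-ECD, as given above, and their part in the calls of the uptake, esterification and glyceride genes was not tested.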

How the data were processed

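The authors deposited FPKM per gene for 8 libraries in a table of 24510 rows. The submitters' processing notes list mm9 as the build and name Cufflinks, DESeq2, HTSeq and TopHat. What each tool did, its version, the annotation and the strand setting: not given in the sources used here. Rows with a date for a symbol (27) and identical repeats (391) were left out, and 89 symbols on several rows were summed. FPKM keeps no depth: low values fell on whole-read steps too seldom (25.8% to 35.5% of ratios) to recover reads, so no count test was run, and no interval of counting error is given. A rough relative depth, from these steps, was 0.53 of Fc 1 in LGR5-ECD replicate 3 and 1.09 to 2.34 in the others.

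Genes with at least 1 FPKM in at least 2 libraries (11454) were fitted as log2(FPKM + 1) with limma 3.58.1 (trend, under R 4.3.3), 1 mean per group and no covariate, on the 8 libraries together, which left 5 residual degrees of freedom. Two-sided p-values were adjusted over all 11454 genes by the Benjamini-Hochberg method, and a gene was called at an adjusted p under 0.05. Fold changes on this scale understate those of low genes. Each p-value sets a group difference against the spread between these samples within groups, estimated over all groups together and moderated across genes. The Fc libraries thus enter Rspo1 against LGR5-ECD too. Tested on simulated data with 200 changed genes of 11454, the fit recovered 33% of log2 changes of 1 for Rspo1 against LGR5-ECD, 16% for Rspo1 against Fc and 13% for LGR5-ECD against Fc, and 80%, 66% and 62% of log2 changes of 2. In the same order there were 8, 5 and 9 false calls. The simulation gave a gene the same normal spread in every library and changed fewer genes than the 968 called with Rspo1 against LGR5-ECD. Recovery in the data may therefore differ. Figures were drawn with matplotlib 3.10.9, and tables were made with pandas 2.3.3 in Python 3.11.15.

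The members and lists were chosen with earlier results of these data known. By rule every member is named. Values of every library are given for called members and for Hmgcs1, Sqle, Fdft1, Srebf1, Srebf2, Insig1, Fasn, Acaca, Scd1 and Scd2, and were added for others after they had been seen. Of the other lists, counts are given, with up to 6 called genes per list and comparison, smallest p first. Some genes of these lists are not reported here. Alternatives were another pseudocount (0.1), no filter or one at 5 FPKM, median-ratio and quantile scaling, the first row of a symbol, only the compared groups, library weights, each library left out and a replicate block.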

Additional observations from a re-analysis of the deposited data

How the results depend on the processing

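The call of Elovl6 with Rspo1 against LGR5-ECD held under all 17 alternatives, and no called member changed sign under any. Members called there numbered 2, and sterol enzymes 1 (Ebp), under median-ratio scaling, quantile normalization and library quality weights; genes called in all numbered 968, and 1605 with the weights. Leaving out 1 library at a time gave 414 (without Rspo1 replicate 2) to 1035 genes, 1 member and 0 sterol enzymes, and a fatty acid median of -0.32 to 0.12, the highest without LGR5-ECD replicate 1. With Rspo1 against Fc, 143 genes were called, and 74 with a pseudocount of 0.1, 29 with no filter, 293 after quantile normalization and 217 with only those 2 groups. The fatty acid median of 0.31 was -0.041 after quantile normalization. Leaving out 1 library gave 24 (without Rspo1 replicate 2 or Fc 2) to 456 genes (without Fc 1), 0 to 1 members and fatty acid genes, and fatty acid medians of -0.069 (without Fc 2) to 0.35. With LGR5-ECD against Fc, 82 genes were called, and 12 with a pseudocount of 0.1, 4 with no filter, 4 with only those 2 groups and 26 with the weights. In each of these 4 settings 0 members and 0 fatty acid genes were called. The sterol median was 0.85 with a pseudocount of 0.1. Leaving out 1 library gave 0 (without Fc 2) to 175 genes (without Fc 1), 0 to 1 members, fatty acid genes and sterol enzymes, and sterol medians of 0.55 to 1.07. The cause of these differences was not tested. Signs of uncalled members changed in 25 of 523, 29 of 492 and 19 of 492 values of the 3 comparisons, in the order above.

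Same-numbered libraries of the Rspo1 and LGR5-ECD columns deviated with correlations of -0.02, -0.02 and -0.05, so no pairing showed. Differently numbered ones lay between -0.04 and 0.06. A pairing that touched only some genes would not show in this check over all genes. With the replicate number as a block, 586 genes were called in place of 968. Depth limits all of this and is unknown for every value. The library weights, which measure spread and not depth, were lowest for LGR5-ECD replicate 3 (0.328) and the 2 controls (0.614 each). In a group of 2 both libraries get the same weight, so it cannot tell which control deviates.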
